A study of Mus musculus with 20 samples.

Results

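The genes described here are Zpld1, Cldn18, AC145590.1, Hspb7, Wfdc10, AA465934, Dph7 and Abhd1, 8 of the 55487 genes counted in mural granulosa cells (GCs) of mice. They were chosen because their counts in 1 of 2 mouse lines were near 0 or many-fold lower than in the other line, so the difference between the lines is what chose them and is described below without a test. GCs line the wall of the ovarian follicle, feed the oocyte and make steroid hormones, and they were taken from 20 young adult females. These were 5 ctrl mice in estrus, 5 ctrl mice in diestrus, 5 FL1 mice in estrus and 5 FL1 mice in diestrus, with the stage read from vaginal smears. FL1 is the Dummerstorf line bred over many generations for large litters, ctrl was bred without selection, and both go back to 1 founder population made from inbred and outbred stocks. None of the mice carried a transgene or received a treatment. The GCs of several large follicles of a mouse were pooled into 1 sample, so each value belongs to 1 mouse, and line differences may come from any part of the genome in which the lines diverged. In such pooled samples fewer cells of a type and less RNA per cell cannot be told apart.

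The 8 genes belong to different pathways. Zpld1 encodes a membrane protein with a zona pellucida domain, the fold that also builds the coat of the oocyte, and is best known from the inner ear. Cldn18 encodes a claudin, a membrane protein of tight junctions, best known from stomach and lung epithelium. Hspb7 encodes a small heat shock protein that is abundant in heart and skeletal muscle. Wfdc10 encodes a small secreted protein of the WAP domain family, which includes protease inhibitors, and lies in a cluster of such genes. Dph7 encodes a WD repeat enzyme of the pathway that forms diphthamide, a modified histidine of the translation elongation factor eEF2. Abhd1 belongs to the alpha/beta hydrolase family of lipid and ester cleaving enzymes. AA465934 and AC145590.1 are annotated as non-coding transcripts, and AA465934 hosts the small nucleolar RNA Snord7. The annotation used here gives Abhd1 the same class as AA465934, processed transcript, and not protein coding.

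The reads counted on genes numbered between 5446576 and 8257041 per mouse, and a count of 3 corresponded to between 0.343 and 0.545 CPM, the count scaled to a library of 1000000 reads with TMM. A gene with 0 reads may therefore have been expressed up to about this level, and this limit covers counting error only. The libraries read the 3′ ends of polyadenylated transcripts, so counts do not grow with transcript length. The granulosa markers fixed for this work summed to between 5014 and 13636 CPM in every mouse, and oocyte markers were present at between 40.6 and 484 CPM although the oocyte had been left out. None of the marker genes of any cell type was called between the lines in either stage. The summed leukocyte markers of FL1 mice did not overlap those of ctrl mice, with 11.6 to 17.9 CPM against 2.95 to 11.3 CPM in estrus and 4.38 to 26.2 CPM against 0 to 3.88 CPM in diestrus. Their part in the results below was not tested.

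Zpld1 had the most reads among the genes that were higher in FL1 mice. The gene spans chr16:55225175-55297986 on the minus strand (GRCm38, GENCODE M21) and overlaps no other annotated gene. In estrus the ctrl mice had 21, 0, 33, 14 and 3 counts. The FL1 mice in estrus had 2334, 877, 942, 2882 and 1425 counts. In diestrus the counts were 167, 94, 159, 58 and 128 in ctrl mice and 1449, 6129, 7129, 2207 and 6335 in FL1 mice. Every FL1 mouse was above every ctrl mouse, across the stages too, and the lowest FL1 mouse had 109.5 CPM while the highest ctrl mouse had 29.8 CPM. In estrus the mean was 254 ± 130 CPM (SD, n = 5) in FL1 mice and 1.88 ± 1.61 CPM in ctrl mice, a ratio of 135. In diestrus the means of 735 ± 417 CPM and 18.2 ± 7.66 CPM gave a ratio of 40.3. The groups thus stood in the order ctrl estrus, ctrl diestrus, FL1 estrus and FL1 diestrus, and only the FL1 groups overlapped.

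Cldn18 had no read in any of the 10 ctrl mice. It spans chr9:99689461-99717267 on the minus strand, and the antisense gene Gm16004 on the other strand was at 0 in all 20 mice. FL1 mice had 42, 237, 22, 46 and 0 counts in estrus and 443, 28, 28, 19 and 16 counts in diestrus. Thus 9 of 10 FL1 mice expressed the gene, most of them weakly, and 1 mouse in each stage stood far above the others. The mean of FL1 mice was 9.21 ± 11.7 CPM in estrus and 16.7 ± 29.3 CPM in diestrus, at least 20.9-fold and at least 36.5-fold higher than the 3-count limit of the ctrl mice. Without FL1 estrus mouse 2 the log2 bound in estrus fell from 4.38 to 3.22, and without FL1 diestrus mouse 1, which carried most of the counts, that in diestrus fell from 5.19 to 2.97. The lines overlapped in estrus, because FL1 estrus mouse 5 was also at 0, and did not overlap in diestrus.

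The deposited label calls the samples GCs, and Cldn18 is a gene of epithelia, so epithelial markers are given beside it. The summed level of 6 markers of surface and glandular epithelium was 54.9 to 107.7 CPM in FL1 mice in estrus and 14.4 to 33.4 CPM in ctrl mice in estrus, with no overlap. In diestrus the sums were 8.19 to 45.3 CPM in FL1 mice and 17.7 to 52.7 CPM in ctrl mice and overlapped. None of the 6 markers was at 0 in a whole group. FL1 estrus mouse 2, the highest for Cldn18 in this stage, had the lowest epithelial sum of the FL1 estrus mice (54.9 CPM), and FL1 estrus mouse 5, with no Cldn18 read, had the highest (107.7 CPM). FL1 diestrus mouse 1, with 443 counts of Cldn18, had an epithelial sum of 30.9 CPM, inside the range of the ctrl mice in diestrus. The part of epithelial cells in the Cldn18 counts was not tested.

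**Figure D1:**
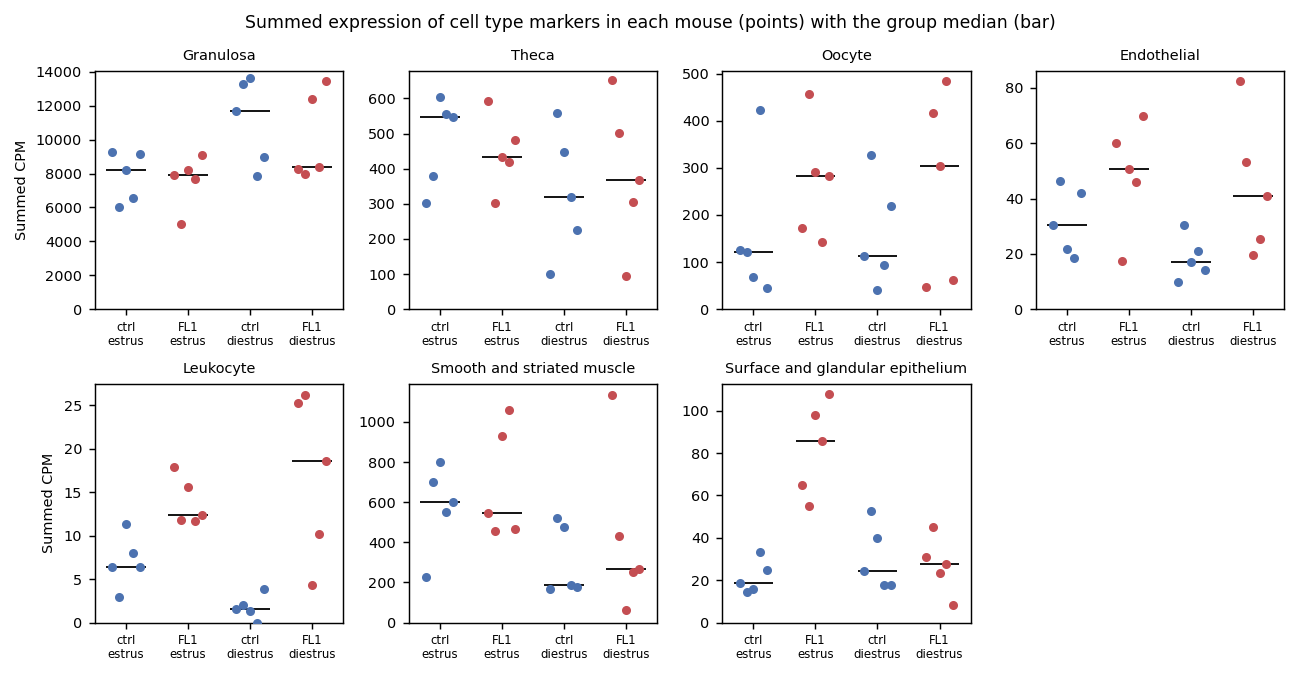
Summed CPM of the marker genes of 7 cell types on the vertical axes, with each point a mouse, the bar the group median, blue for ctrl and red for FL1. The epithelial sums of FL1 mice in estrus (54.9 to 107.7 CPM) lie above all ctrl mice in estrus, and the leukocyte sums of FL1 mice lie above those of ctrl mice in both stages.

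AC145590.1, annotated as a long intergenic non-coding RNA at chr19:20005989-20060758 on the minus strand, had 1 count in all 10 ctrl mice together. FL1 mice had 58, 349, 24, 30 and 42 counts in estrus and 96, 0, 57, 0 and 31 counts in diestrus. All FL1 mice in estrus expressed it, but only 3 of 5 in diestrus, so the lines overlapped in diestrus only. The mean of FL1 mice was 13.6 ± 16.9 CPM in estrus and 5.90 ± 6.39 CPM in diestrus, at least 30.7-fold and at least 12.9-fold higher than the limit of the ctrl mice. FL1 estrus mouse 2 held most of the counts in estrus, and without it the log2 bound fell from 4.94 to 3.78. Without FL1 diestrus mouse 1 the log2 bound in diestrus fell from 3.69 to 2.99. The small nucleolar RNA Gm22684 within the gene, on the same strand, was at 0 in all mice.

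Hspb7 had its highest counts in FL1 mice in estrus. The gene lies at chr4:141420779-141425311 on the plus strand and overlaps no other annotated gene. Its counts in estrus were 0 in all 5 ctrl mice and 40, 40, 20, 15 and 19 in FL1 mice. In diestrus ctrl mice had 0, 5, 0, 0 and 13 counts and FL1 mice 0, 0, 0, 1 and 0 counts. All FL1 mice in estrus were thus above all mice of the other 3 groups. The mean of 3.94 ± 1.67 CPM in FL1 mice in estrus was at least 8.94-fold higher than the limit of the ctrl mice. In diestrus the typical mouse of either line was within 3 counts of 0, so no ratio is given, and the rule that chose the gene holds in estrus only. Markers of smooth and striated muscle overlapped between the lines in estrus, with 458 to 1061 CPM in FL1 mice and 225 to 803 CPM in ctrl mice. Of the 6 muscle markers, 1 (Actc1) was at 0 in all 5 FL1 mice in estrus, and its mean in ctrl mice was 3.77 CPM. The estrus mean of Myh11 was also lower in FL1 mice (23.2 against 35.4 CPM). The estrus means of Acta2 (630.5 against 502.2 CPM), Cnn1 (33.3 against 31.6 CPM), Des and Tnnt2 were higher in FL1 mice. The ranges of each of these markers overlapped between the lines. The epithelial sums given above also separated the lines in estrus, and the part of muscle and epithelial cells in the Hspb7 counts was not tested.

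Wfdc10 was expressed in all ctrl mice and at a low level in FL1 mice. It lies at chr2:164656046-164657368 on the plus strand. In estrus the ctrl mice had 1145, 1559, 1215, 1016 and 1301 counts and the FL1 mice 16, 62, 16, 0 and 16 counts. In diestrus the ctrl mice had 286, 559, 174, 706 and 454 counts and the FL1 mice 14, 7, 5, 6 and 18 counts. The lines did not overlap over all 20 mice, with at least 23.2 CPM in every ctrl mouse and at most 7.74 CPM in every FL1 mouse. The means of 184 ± 46.1 CPM in ctrl mice and 3.09 ± 2.83 CPM in FL1 mice in estrus gave a 59.7-fold lower level, and those of 67.6 ± 38.8 CPM and 1.61 ± 0.983 CPM in diestrus a 42.0-fold lower level. Without FL1 estrus mouse 2, the highest of its group, the log2 ratio in estrus changed from -5.90 to -6.58. Another WAP domain gene, Wfdc9, overlaps Wfdc10 on the other strand without shared exon bases. Wfdc9 had 0, 49, 18, 0 and 0 counts in ctrl mice in estrus, 26, 11, 0, 0 and 9 counts in ctrl mice in diestrus and 0 counts in all FL1 mice, and was too low to be tested. The strand setting of the counting was not given in the sources used here, so reads of the overlapping genes cannot be told apart with certainty.

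AA465934, at chr11:83291699-83294632 on the plus strand, differed among the ctrl mice themselves. In estrus the ctrl mice had 1923, 2409, 50, 3753 and 68 counts and the FL1 mice 82, 74, 48, 0 and 15 counts. In diestrus the ctrl mice had 2486, 4071, 3404, 34 and 3075 counts and the FL1 mice 98, 88, 66, 39 and 41 counts. Thus 7 of 10 ctrl mice had 1923 counts or more, while the other 3 lay within the range of the FL1 mice, which reached 15.3 CPM at most. The lines overlapped in both stages for this reason. The mean was 245 ± 237 CPM in ctrl mice and 6.43 ± 5.17 CPM in FL1 mice in estrus, a 38.1-fold lower level. In diestrus it was 372 ± 210 CPM and 10.3 ± 3.62 CPM, a 36.0-fold lower level. Snord7, which lies inside the gene on the same strand, had 83 counts in 4 of 10 ctrl mice and 28 counts in 4 of 10 FL1 mice. All of these ctrl counts were in diestrus. The FL1 mice had 0, 1, 14, 0 and 0 counts in estrus and 0, 0, 0, 5 and 8 in diestrus.

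Dph7 was weakly expressed in ctrl mice and almost without reads in FL1 mice. The gene spans chr2:24962400-24972163 on the plus strand and overlaps no other annotated gene. Ctrl mice had 61, 39, 39, 44 and 26 counts in estrus and 5, 49, 64, 56 and 50 counts in diestrus. The 10 FL1 mice together had 2 counts, in 2 mice, against 433 in the 10 ctrl mice. No FL1 mouse reached the lowest ctrl mouse, ctrl diestrus mouse 1 with 5 counts. The mean of ctrl mice was 6.07 ± 1.81 CPM in estrus and 6.57 ± 3.50 CPM in diestrus, so FL1 mice were at least 13.5-fold and at least 13.8-fold lower.

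Abhd1 lies at chr5:30950066-30955091 on the plus strand and is annotated as a processed transcript. Ctrl mice had 56, 62, 68, 30 and 99 counts in estrus and 25, 60, 110, 65 and 56 counts in diestrus. FL1 mice had 6, 0, 0, 0 and 9 counts in estrus and 0 counts in all 5 mice in diestrus. The lines did not overlap over the 20 mice, with at least 4.42 CPM in ctrl mice and at most 1.53 CPM in FL1 mice. In estrus the means of 9.42 ± 4.71 CPM in ctrl mice and 0.494 ± 0.707 CPM in FL1 mice gave a 19.1-fold lower level. In diestrus the ctrl mean was 9.29 ± 3.98 CPM, and FL1 mice were at least 19.5-fold lower. Without FL1 estrus mouse 5 the log2 ratio in estrus changed from -4.25 to -5.32. Preb, which encodes a regulator of vesicle export from the endoplasmic reticulum, shares 1575 exon bases with Abhd1 on the other strand. Preb had 3115 counts in ctrl mice and 3027 in FL1 mice, and its log2 difference between the lines was 0.17 in estrus (edgeR adjusted p = 0.914) and -0.14 in diestrus (edgeR adjusted p = 1.00).

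**Figure D2:**
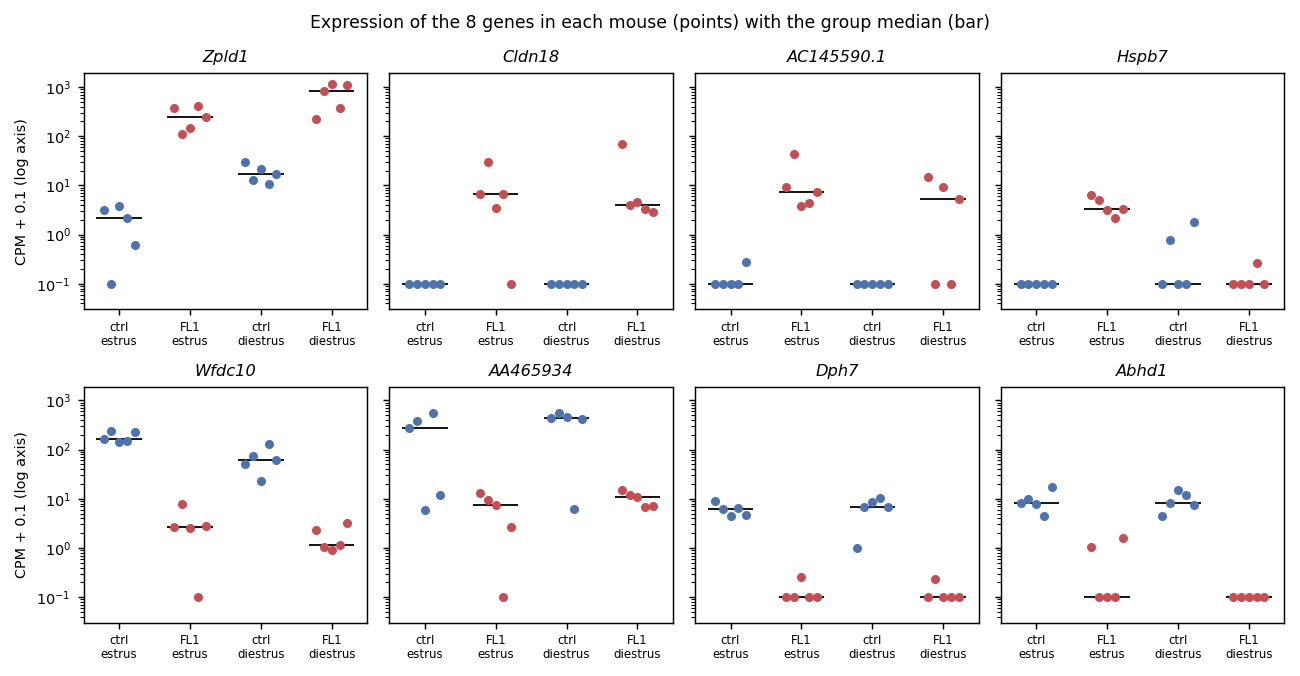
Expression of the 8 genes in every mouse as CPM + 0.1 on a log axis, with each point a mouse, the bar the group median, blue for ctrl and red for FL1, and points at the bottom standing for 0 reads. Zpld1, Wfdc10, Dph7 and Abhd1 separate all FL1 mice from all ctrl mice, while 3 ctrl mice lie at the FL1 level of AA465934.

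Over the 20 mice the lines did not overlap for 8 genes with FL1 above (0.0536% of 14938 genes passing the filter) and for 18 genes with FL1 below (0.12%). Zpld1 was among the former, and Wfdc10, Dph7 and Abhd1 were among the latter. Of the 8 genes, 7 passed the filter on low counts in estrus and 5 were called between the lines, beside 0.769% of all genes tested. In diestrus 5 passed and 5 were called, beside 0.248% of all genes tested. Within estrus the FL1 mice were all above the ctrl mice for Zpld1, AC145590.1 and Hspb7 (1.85% of genes tested) and all below for Wfdc10, Dph7 and Abhd1 (1.71%). Within diestrus they were all above for Zpld1 and Cldn18 (0.823%) and all below for Wfdc10, Dph7 and Abhd1 (0.761%). Nothing is read from these counts, since the line difference chose the genes, and several passed the filter only through the line in which they were high. These were Zpld1, AC145590.1 and Hspb7 in estrus and Cldn18 in diestrus through FL1 mice. Through ctrl mice they were Dph7 and AA465934 in estrus and Wfdc10 and Abhd1 in both stages.

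A stricter look at genes that were on or off asked for 10 counts or more in all 5 mice of a line and 3 or fewer in all 5 mice of the other. In estrus 7 genes were on in FL1 mice only by this measure (0.063% of 11118 genes with such counts in a line), AC145590.1 and Hspb7 among them. In the same stage 2 genes were on in ctrl mice only (0.018%), Dph7 and the pseudogene Gm3226. In diestrus the genes on in FL1 mice only were Cldn18 and AC169506.2 (0.0182% of 11009 genes), and 4 genes were on in ctrl mice only (0.0363%), namely Abhd1, 1700001G11Rik, Gm46578 and Slitrk1. No gene met this measure in both stages. Dph7 missed it in diestrus through the ctrl mouse with 5 counts, and Abhd1 missed it in estrus through the FL1 mice with 6 and 9 counts. Zpld1, Wfdc10 and AA465934 met it in neither stage, as some mice of the low line held more than 3 counts. The names of genes outside the 8 were picked here with their values in view.

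The sequences before the start sites are shown for the gene with the largest ratio and for the 3 genes with RefSeq windows that were lower in FL1 mice, all of them genes whose means differed between the lines in both stages. Each runs 5′ to 3′ on the strand of the gene, from 250 bases before to 50 bases after the RefSeq start (GRCm38.p6), and capitals mark a motif that was searched for. The windows are chr16:55283188-55283487 on the minus strand for Zpld1, chr2:164655796-164656095 on the plus strand for Wfdc10, chr11:83291449-83291748 on the plus strand for AA465934 and chr2:24962172-24962471 on the plus strand for Dph7.
Zpld1: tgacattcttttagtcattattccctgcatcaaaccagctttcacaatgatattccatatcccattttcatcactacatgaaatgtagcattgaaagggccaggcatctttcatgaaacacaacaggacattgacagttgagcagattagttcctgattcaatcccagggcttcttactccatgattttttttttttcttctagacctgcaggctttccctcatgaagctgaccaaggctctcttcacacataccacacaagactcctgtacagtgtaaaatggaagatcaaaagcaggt
Wfdc10: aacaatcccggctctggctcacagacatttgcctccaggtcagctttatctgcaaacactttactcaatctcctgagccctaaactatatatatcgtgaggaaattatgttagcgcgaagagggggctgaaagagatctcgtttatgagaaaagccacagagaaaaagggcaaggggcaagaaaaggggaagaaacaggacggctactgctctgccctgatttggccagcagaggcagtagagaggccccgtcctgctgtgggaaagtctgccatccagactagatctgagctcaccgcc
AA465934: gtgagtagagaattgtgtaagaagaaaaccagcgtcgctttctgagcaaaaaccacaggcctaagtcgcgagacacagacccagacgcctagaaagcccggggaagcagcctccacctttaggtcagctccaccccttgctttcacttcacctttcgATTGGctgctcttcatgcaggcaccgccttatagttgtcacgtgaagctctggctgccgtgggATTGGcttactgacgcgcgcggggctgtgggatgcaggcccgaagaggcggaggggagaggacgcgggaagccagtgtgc
Dph7: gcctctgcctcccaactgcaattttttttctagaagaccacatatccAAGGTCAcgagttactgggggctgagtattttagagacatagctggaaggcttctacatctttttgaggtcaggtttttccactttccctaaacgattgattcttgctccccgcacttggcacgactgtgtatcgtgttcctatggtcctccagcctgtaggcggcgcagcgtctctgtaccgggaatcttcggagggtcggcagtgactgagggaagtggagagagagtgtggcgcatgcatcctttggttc
The motifs were searched on both strands. Of 32851 RefSeq windows of this length, TATAAA was in 13.6%, CCAAT in 37.4%, GGGCGG in 35.7%, TGATAA in 9.05% and TGACGTCA in 1.79%. The AAGGTCA element, which NR5A factors of steroidogenic cells bind, was in 4.72%. Windows were found for 6 of the 8 genes. AA465934 held CCAAT on the reverse strand, printed as ATTGG, at positions -93 and -30 from the start, and Dph7 held AAGGTCA at position -203. No searched motif was found in the windows of Zpld1, Wfdc10, Hspb7 and Cldn18. The Zpld1 window had no CpG, while the median over all windows was 7, and its GC content was 40.3% against a median of 52.7%. The RefSeq start of Zpld1 lies 14749 bases from the GENCODE start, so this window is not at the first exon of the GENCODE gene. Wfdc10 had 8 CpG, AA465934 18 and Dph7 12. A motif match describes letters only and shows no binding.

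The stages of the cycle were compared within each line, a contrast other than the one that chose the genes, with edgeR's quasi-likelihood test over all genes. For Hspb7 the high values of FL1 mice in estrus chose the gene, so its stage difference is given without a test. The test could be run for 11 of the 16 combinations of gene and line, as the others had too few reads. Wfdc10 fell in GCs of ctrl mice from 184 ± 46.1 CPM in estrus to 67.6 ± 38.8 CPM in diestrus (log2 change -1.46, SE 0.33, edgeR adjusted p = 0.0357), beside 1.36% of genes called in ctrl mice. All ctrl mice in diestrus were below all ctrl mice in estrus. Only 1 of the 10 fits with a mouse left out called Wfdc10, with edgeR adjusted p between 0.00883 and 0.114. In FL1 mice, at its low level, the log2 change of Wfdc10 was -0.94 (edgeR adjusted p = 0.890), beside 0.221% of genes called in FL1 mice. With a mouse left out it lay between -1.30 and -0.28.

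With the filter on low counts Zpld1 was not called in either line, although its diestrus mean was 9.69 times the estrus mean in ctrl mice and 2.90 times in FL1 mice. The log2 change in ctrl mice was 3.25 (SE 0.80, edgeR adjusted p = 0.0558), and DESeq2 gave an adjusted p of 0.000502. All ctrl mice in diestrus were above all ctrl mice in estrus. In FL1 mice the log2 change was 1.52 (SE 0.42, edgeR adjusted p = 0.147) with overlapping stages. Without FL1 diestrus mouse 1, the lowest of its group, the edgeR adjusted p for Zpld1 was 0.0232. Without the filter on low counts edgeR called Zpld1 in both lines, with an adjusted p of 0.00913 in ctrl mice and 0.000118 in FL1 mice. The stage pattern of Zpld1 and Wfdc10 thus ran in opposite directions by the signs of their estimates, and with the filter and all mice only the change of Wfdc10 in ctrl mice passed the edgeR test.

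Hspb7 in FL1 mice was at least 8.26-fold lower in diestrus than in estrus, with every diestrus mouse below every estrus mouse. The summed epithelial markers of FL1 mice also did not overlap between the stages, with 54.9 to 107.7 CPM in estrus and 8.19 to 45.3 CPM in diestrus, and their part in the difference was not tested. Hspb7 passed the filter on low counts only through the FL1 mice in estrus. The other stage comparisons were not called. In ctrl mice the log2 changes were 0.60 for AA465934, 0.10 for Dph7 and -0.02 for Abhd1, with standard errors of 0.93, 0.73 and 0.56. In FL1 mice they were 0.86 for Cldn18, -1.20 for AC145590.1 and 0.68 for AA465934, with standard errors of 1.02, 1.05 and 0.81. Without FL1 estrus mouse 2 the change of AC145590.1 was -0.045. Whether the line difference itself changed with the stage was not tested, because that difference had chosen the genes.

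The genes around the 8 were examined next, to see whether the line differences extended along the chromosome. Of the genes tested in estrus that start within 500 kb of a member, 2 were weaker expressed in FL1 mice (1.89% of them, beside 0.769% over all genes). In diestrus 1 was weaker expressed (0.990% of those tested, beside 0.248%). The first was Mfap2, a component of extracellular microfibrils 410361 bases before the start of Hspb7. Mfap2 had 260 ± 46.2 CPM in ctrl mice and 81.6 ± 37.0 CPM in FL1 mice in estrus (log2 difference -1.67, SE 0.29, edgeR adjusted p = 0.00710). In diestrus its levels were 218 ± 23.8 CPM and 110 ± 15.3 CPM (log2 difference -0.98, SE 0.18, edgeR adjusted p = 0.0280). With a mouse left out Mfap2 was called in all 10 fits in estrus and in 3 of 10 in diestrus (edgeR adjusted p from 0.0354 to 0.0930). Mfap2 was thus lower in FL1 mice, while Hspb7 was higher in estrus.

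The other was Dpysl5, a gene of the dihydropyrimidinase-like family 238502 bases before the start of Abhd1. It had 70.7 ± 26.1 CPM in ctrl mice and 25.5 ± 8.79 CPM in FL1 mice in estrus (log2 difference -1.47, SE 0.31, edgeR adjusted p = 0.0291) and was not called in diestrus (edgeR adjusted p = 0.956). Of the 10 fits with a mouse left out in estrus 5 called Dpysl5 (edgeR adjusted p from 0.0207 to 0.106). Neither gene lies within 100 kb of a member, and no tested gene within that distance was called. Zpld1 had no tested gene within 500 kb. The median log2 difference of all tested neighbours was -0.04 in estrus and 0.02 in diestrus, beside 0.01 over all genes in each stage. The highest log2 differences of neighbours in estrus were not called. Pltp, 201665 bases from the start of Wfdc10, had 4.30 in estrus (edgeR adjusted p = 0.0989) and 2.05 in diestrus. Rnf208, 279855 bases from the start of Dph7, had 4.28 in estrus (edgeR adjusted p = 0.142) and 2.52 in diestrus. Rnf208 was among the 8 genes with all FL1 mice above all ctrl mice, and Mfap2 among the 18 with all below.

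**Figure D3:**
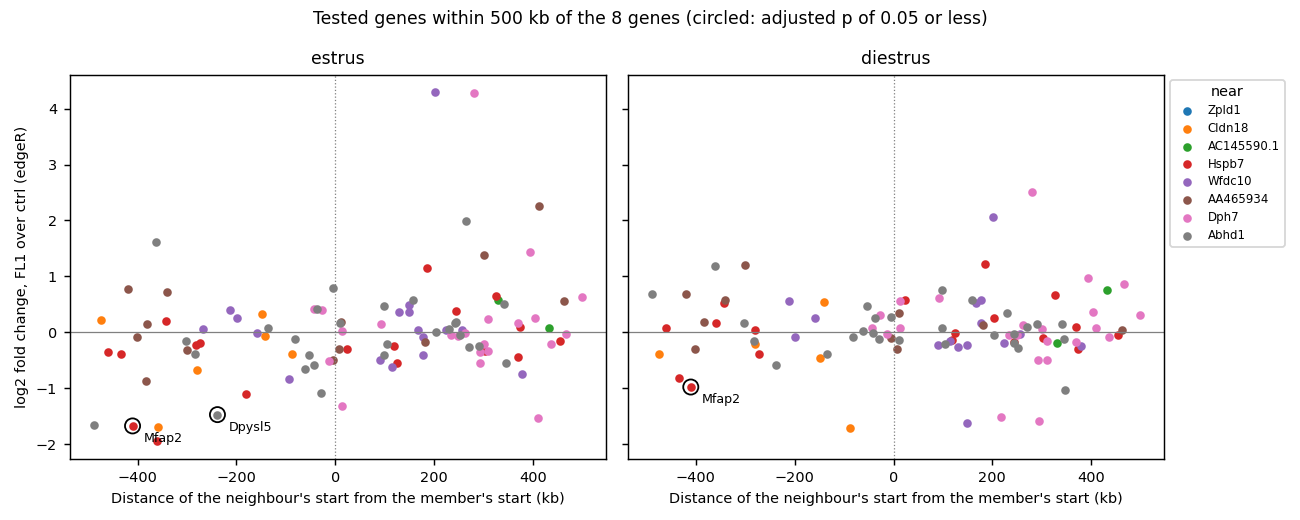
Log2 fold change of FL1 over ctrl mice for each tested gene within 500 kb, by the distance in kb of its start from the start of the member it is near, in estrus on the left and diestrus on the right, with colours for the members. The circled genes, Mfap2 in both stages and Dpysl5 in estrus, are those with an adjusted p of 0.05 or less.

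The nearest tested genes described here, on either side of a member, were not called in either stage. Zmynd19 ends 325 bases before Dph7 and had 58.1 ± 19.2 CPM in ctrl mice and 41.0 ± 9.10 CPM in FL1 mice in estrus (log2 difference -0.50, edgeR adjusted p = 0.522). On the other side of Dph7, Mrpl41, 1954 bases away, had a log2 difference of 0.02 (edgeR adjusted p = 0.996). Slfn14, 4973 bases before AA465934, had log2 differences of -0.50 and -0.11 (edgeR adjusted p = 0.844 and 1.00). Cgref1, 4475 bases before Abhd1, had log2 differences of 0.79 and 0.27 (edgeR adjusted p = 0.901 and 1.00). Around Cldn18, Dzip1l had log2 differences of -0.38 and -1.71 (edgeR adjusted p = 0.956 and 0.871), and Nck1 of -0.19 and 0.00 (edgeR adjusted p = 0.894 and 1.00). Beside Hspb7, Zbtb17 had log2 differences of -0.29 and 0.58 (edgeR adjusted p = 0.919 and 1.00). The remaining nearest genes, Alcam and Nfkbiz around Zpld1, Trpm6 and Anxa1 around AC145590.1, Arhgef19 before Hspb7, Wfdc2 and Dnttip1 around Wfdc10 and Slc5a6 after Abhd1, had adjusted p of 0.243 or more where they were tested.

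The families and pathways of the members were then described, to see whether relatives moved with them. The lists did not hold the members themselves, and 22 of the listed genes had no read in any mouse. In estrus 55 were tested, and 1 was called (beside 0.769% of all genes), while 6 had an unadjusted edgeR p under 0.05. In diestrus 44 were tested, and 0 were called with edgeR (beside 0.248% of all genes), while 4 had an unadjusted edgeR p under 0.05. DESeq2 called 1 in diestrus. The unadjusted shares over all genes are not given here. The called gene was Jam2, a junctional adhesion molecule in the list of claudins and tight junction genes. Jam2 fell from 191 ± 31.1 CPM in ctrl mice to 90.6 ± 18.4 CPM in FL1 mice in estrus (log2 difference -1.07, SE 0.20, edgeR adjusted p = 0.0117). In diestrus its log2 difference was -1.11 (SE 0.23, edgeR adjusted p = 0.0580), and DESeq2 gave an adjusted p of 0.00110. Jam2 was thus lower in FL1 mice, while Cldn18 was higher. Of the 33 claudin and tight junction genes 9 were at 0 in all mice, and the median log2 difference of the 15 tested was -0.06 in estrus.

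The 7 other genes of diphthamide formation were all tested in estrus and none was called. Dph6, the enzyme of the last step, had a log2 difference of 0.00 (edgeR adjusted p = 0.998), and Eef2, the gene of the modified protein, one of -0.08 (edgeR adjusted p = 0.940). Dnajc24, a cofactor of the first step, had the lowest value of the list at -1.10 and Dph5, the methyltransferase of the pathway, the highest at 0.93 (edgeR adjusted p = 0.385 and 0.393). Of 9 small heat shock protein genes 4 were tested in each stage, and none was called. Of 20 genes of the WAP domain family 4 were tested in estrus and 0 in diestrus, and 5 were at 0 in all mice. Of 13 zona pellucida domain genes 7 were tested in estrus, among them the oocyte coat genes Zp1, Zp2 and Zp3 with log2 differences of -0.03, -0.29 and 0.24. Of 20 genes of the alpha/beta hydrolase family 18 were tested in estrus with a median log2 difference of 0.10, and none was called.

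**Figure D4:**
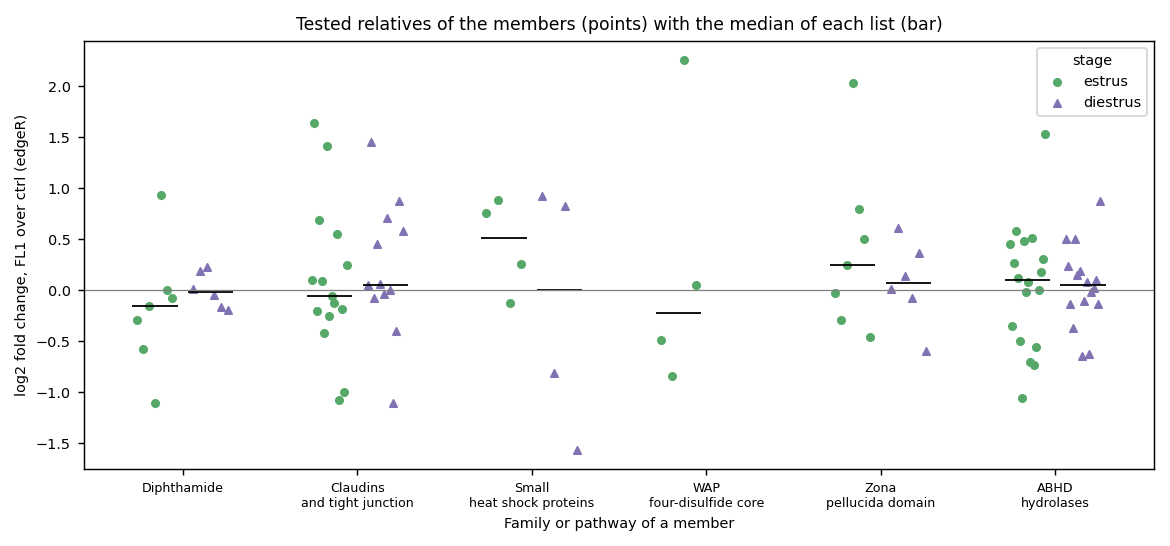
Log2 fold change of FL1 over ctrl mice for each tested relative of a member, grouped by family on the horizontal axis, with circles for estrus, triangles for diestrus and a bar at the median of each list. The medians lie between -0.22 and 0.51, and no WAP domain gene could be tested in diestrus.

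The genes whose log2 CPM over the 20 mice was most like that of a member are given as a description, since the mice share lines and stages. Dph7 was most like Rps2 (Pearson r = 0.96), Abhd1 (r = 0.92) and St3gal5 (r = 0.91). Rps2, Dph7 and St3gal5 were also the most like Abhd1 (r = 0.92 for each). For Wfdc10 they were Rps2 (r = 0.91), St3gal5 (r = 0.91) and Dph7 (r = 0.90). Rps2 encodes a protein of the small ribosomal subunit, a class of genes with many processed copies in the genome, and St3gal5 encodes the enzyme that makes the ganglioside GM3. Both were among the 18 genes with all FL1 mice below all ctrl mice. Dph7, Abhd1, Rps2 and St3gal5 lie on different chromosomes (2, 5, 17 and 6), and Wfdc10 lies on the chromosome of Dph7 but far from it.

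The genes higher in FL1 mice had other partners, as did AA465934, which was lower in FL1 mice. Zpld1 was most like Igsf3 (r = 0.86), Dnajb14 (r = 0.85) and H2-D1 (r = 0.83). For Cldn18 the genes were Ecm1 (r = 0.85), Ccng1 (r = 0.83) and Bace2 (r = 0.83). For AC145590.1 they were Rab27a (r = 0.85), Ncoa7 (r = 0.81) and Acsl4 (r = 0.80). Hspb7 was most like Adh7 (r = 0.82), which also was on only in FL1 mice in estrus, then Sag (r = 0.81) and 2210408F21Rik (r = 0.79). AA465934 was most like Cnot3 (r = 0.80), 1810034E14Rik (r = 0.80) and Cntrob (r = 0.77). None of these genes lay within 500 kb of its member. No near-identical copy of the 3′ end of a member was found among annotated transcripts, apart from the stretch that Abhd1 shares with Preb.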

How the data were processed

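GCs of 20 mice were examined, and every sample was assigned to line, stage and replicate from the labels. The authors deposited raw read counts per Ensembl gene for each mouse, made from QuantSeq 3′ libraries by trimming and alignment with STAR to GRCm38. The strand setting and the counting tool are not given in the sources used here, and reads with several matches were not counted. Of 55487 identifiers 55227 were found in GENCODE M21. Per mouse 5446576 to 8257041 reads were on genes, and 0 other sample columns were left aside. RefSeq gave the promoter sequences.

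Counts were analysed in R 4.3.3 with edgeR 4.0.16 (TMM, quasi-likelihood F test, filterByExpr with min.count 10, min.total.count 15 and min.prop 0.7) on the 10 mice of each comparison, with Benjamini-Hochberg adjustment over all genes tested and a threshold of 0.05. DESeq2 1.42.0, RLE size factors, no filter, the replicate number as a block, each mouse left out, and a window of 100 kb in place of 500 kb were alternatives. Means, plots and searches used Python 3.11.15 and BLAST 2.17.0 (the last 500 nt, 90% identity, 100 nt). P-values measure the spread between these mice. The fits were checked on simulated counts in which 200 genes had been changed. The size of change the test had to recover was raised after a first run had missed its mark.

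The members and all lists were chosen with earlier results of these data known. Named are the members, overlapping and nearest tested genes, called neighbours and relatives, and per member the 3 genes with the highest Pearson r of log2 CPM (prior count 2). The neighbours Pltp and Rnf208 were named after seeing their values. A ratio is a bound where all mice of a group had 3 counts or fewer (mean over its mice of 3 counts per library). No ratio is given where the typical mouse of the other group was also at this limit, a rule made after seeing Hspb7 in diestrus. The on and off measure of 10 and 3 counts, the motifs and the copy search were also chosen after seeing the data. The result for 1 nearest gene is not reported here.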

Additional observations from a re-analysis of the deposited data

Results flagged for a closer look

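In 4 of the 23 groups with reads that were examined, 1 mouse stood apart from the other 4 by a gap of more than 0.71 of the range of the group. For normally distributed values this threshold is meant to let chance flag about 1 in 20 groups, and whether that rate holds for these skewed values was not tested. For Cldn18, FL1 estrus mouse 2 had 29.6 CPM and the next mouse 6.59 CPM. FL1 diestrus mouse 1 had 69.1 CPM of Cldn18 and the next mouse 4.54 CPM. For AC145590.1, FL1 estrus mouse 2 had 43.6 CPM and the next 9.10 CPM, so this mouse was the highest of its group for both genes. FL1 diestrus mouse 1 was also the highest of its group for both, with 14.97 CPM of AC145590.1, which was not flagged. This mouse had the highest summed muscle (1136 CPM), theca (651 CPM) and endothelial (82.6 CPM) markers of all mice. FL1 estrus mouse 2 had the lowest granulosa sum of all mice (5014 CPM) and the highest oocyte sum of its group (458 CPM). For AA465934, ctrl diestrus mouse 4 had 6.18 CPM, while the next lowest mouse of the group had 411 CPM. The causes were not tested.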

How the results depend on the processing

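The numbers of genes called depended on the tool and the filter. Between the lines in estrus 100 genes were called with edgeR, 422 with DESeq2, 373 without a filter on low counts, and between 66 and 130 with a mouse left out. In diestrus the 32 calls became 118, 1.1e+02 (rounded) and between 21 and 32. Between the stages the 175 calls in ctrl mice became 525, 348 and between 77 and 176, and the 29 calls in FL1 mice became 264, 299 and between 13 and 178, with 178 without FL1 diestrus mouse 1. Of the neighbours, 2 were called in estrus, 8 with DESeq2, 4 without a filter, 0 within 100 kb, and 1 to 2 with a mouse left out. In diestrus 1 was called, 2 with DESeq2, 0 within 100 kb, and 0 to 1 with a mouse left out. Of the relatives, 0 were called in diestrus, 1 with DESeq2, 1 without a filter, and 0 to 1 with a mouse left out, with 1 without ctrl diestrus mouse 2.

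The replicate numbers count different mice and do not pair them (correlations between same-numbered mice from -0.12 to 0.12). With the replicate block 58 and 13 genes were called between the lines in estrus and diestrus, 158 and 28 between the stages in ctrl and FL1 mice, and 1 and 0 of the neighbours. At most 1 of 5 mice in a comparison correlated best with its own number.

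Some estimates that were not called changed sign. The log2 stage change of Dph7 in ctrl mice, 0.10, was -0.032 with the replicate block and between -0.10 and 0.39 with a mouse left out. That of Abhd1, -0.02, ranged from -0.25 to 0.31, and that of Cldn18 in FL1 mice, 0.86, from -1.37 (without FL1 diestrus mouse 1) to 2.0. Of the alternatives for the line ratios 190 stayed within the spread between mice and 4 did not, of which 1 is the log2 ratio of Cldn18 in diestrus by median CPM (3.07). The causes were not tested.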
